A study of Homo sapiens with 8 samples.

Results

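Genes that are best known from neurons were measured in RNA-seq of a human cell line kept with or without sodium benzoate (SB). Of 9 genes listed as neuronal genes known from kidney-derived lines, 7 have a row in the deposited table of 14526 genes: NEFL, NEFM, INA, SNCB, SNCG, STMN3 and UCHL1. The other 2, NEFH and STMN2, have no row under these or older symbols and were not analysed here. The list was selected on the RPKM values of SB-treated against control samples, the same comparison that is described here. The 4 control samples and the 4 SB-treated samples are numbered 1 to 4 in each group. All were labelled HepG2, a line derived from a human liver carcinoma, and were grown in DMEM with 10% FBS. The SB-treated cells received 10 mM SB for 24 h before harvest, and the labels give no agent for the controls.

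The label was checked against marker genes. Of 20 genes characteristic of hepatocytes, 17 have no row, among them ALB, AFP, APOA1 and SERPINA1, and of the 3 with a row only CPS1 was above 1 RPKM (6.57 ± 0.319 RPKM in the controls, SD, n = 4). The sum over these 3 was between 6.87 and 7.70 RPKM in the controls and between 11.95 and 12.3 RPKM in SB-treated cells. All 3 were called higher in the test described below, where 33.0% of all genes were. RPKM is the authors' read count of a gene scaled to its length and to the size of the library. The data therefore go against the label, and the samples are called here the cells labelled HepG2. Of 12 markers of neurons 5 have no row, among them SNAP25, DCX and ELAVL3, and the sum over the 7 others was between 16.8 and 17.8 RPKM in the controls and between 18.8 and 19.4 RPKM in SB-treated cells. Of 12 kidney and nephric lineage genes 6 have a row, with sums between 55.0 and 59.8 RPKM in the controls and between 43.8 and 45.4 RPKM in SB-treated cells. Of 8 neural progenitor genes 4 have a row, summing to between 28.8 and 32.4 RPKM in the controls and between 31.4 and 32.8 RPKM in SB-treated cells. Of 8 glial genes 4 have a row, with sums of 6.08 to 6.99 RPKM and 4.06 to 5.06 RPKM in the same order, and of 8 adrenal chromaffin and sympathetic genes 2 have a row, with sums of 0.848 to 1.596 RPKM and 1.13 to 1.48 RPKM. The part of these marker groups in the results was not tested. In such bulk samples, fewer cells of a type and less RNA per cell cannot be told apart.

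Neurofilaments are the intermediate filaments of axons. They are built as mixed polymers from the light, medium and heavy chains (NEFL, NEFM and NEFH) and from alpha-internexin (INA), and they set the calibre of large axons. Synucleins are small proteins that bind lipid membranes and are abundant at nerve endings. Stathmins bind tubulin dimers and favour the shortening of microtubules, and STMN2 and STMN3 are among the forms typical of neurons. UCHL1 is a ubiquitin hydrolase that makes up a large share of neuronal protein.

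The members were listed with this comparison already known, so their differences are given as a description and without p-values. SB-treated cells held less SNCG, NEFM, SNCB and NEFL RNA and more INA RNA than control cells. STMN3 and UCHL1 were close to their control levels. With limma on log2(RPKM + 1), the one gene called higher at an adjusted p below 0.05 was INA, and 6 of the 7 were called lower. Over all 14526 genes, 33.0% were called higher, 32.6% lower and 65.6% in either direction, and nothing is read from the members' count beside these shares. Without overlap between the samples of the groups, 1 member was higher, where 31.0% of all genes were, and 5 were lower, where 30.5% were (61.5% in either direction). The median log2 fold change of the members was -0.62, against 0.0045 over all genes.

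The proximal promoters of SNCG and INA are shown because these members stood at the lower and the upper end of the changes. Both lie on the plus strand of chromosome 10 of hg38, and the bases are those before the start site in RefSeq (GRCh38.p14), up to the start annotated in GENCODE. Capitals mark matches on either strand to GGGCGG, the core of the GC box, and to GGACAG, a piece of the element bound by the neuronal gene repressor REST.
SNCG, chr10:86958349-86958598: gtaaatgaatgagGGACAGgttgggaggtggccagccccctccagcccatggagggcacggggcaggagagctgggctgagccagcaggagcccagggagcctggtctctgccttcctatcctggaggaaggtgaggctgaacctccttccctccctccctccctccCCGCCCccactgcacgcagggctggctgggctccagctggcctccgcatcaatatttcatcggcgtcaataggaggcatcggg
INA, chr10:103276888-103277137: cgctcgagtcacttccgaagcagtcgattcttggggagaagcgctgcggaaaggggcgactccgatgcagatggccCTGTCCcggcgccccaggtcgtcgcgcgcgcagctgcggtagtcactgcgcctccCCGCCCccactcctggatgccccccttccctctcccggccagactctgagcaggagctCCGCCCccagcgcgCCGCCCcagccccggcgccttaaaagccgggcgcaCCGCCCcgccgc

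In the 300-base windows that RefSeq promoters were cut to (250 bases before the start and 50 after), INA held 35 CpG dinucleotides at 71.3% GC. The SNCG window held 12 at 66.3% GC, and the window at a second RefSeq start of SNCG held 6. Over 35116 promoters the medians were 14 CpG and 58.7% GC. INA had 4 matches to GGGCGG and SNCG had 1, and 45.0% of all promoters had at least 1. INA had 1 match to GGACAG and SNCG had 2, where 20.5% of promoters had any. Only 1 of the 2 in SNCG lies within the bases printed above, which stop before the last 50 of the window. The window at the second start of SNCG had 1 match to GGACAG and none to GGGCGG. No member window with a sequence held CAGCACC, the other searched piece of the REST element (7.75% of promoters), or TGACGTCA, the cAMP response element (1.85%). TATAAA was found in the UCHL1 window alone (11.5% of promoters), and CCAAT in none of the member windows (34.6%). The windows of SNCB and STMN3 resembled that of INA in CpG number, with 35 each, and UCHL1 held 25. The windows of UCHL1 (chr4:41256678-41256977) and STMN3 (chr20:63652717-63653016) lie inside the GENCODE spans given below. They are thus downstream of the gene starts annotated there. No window was used for NEFL and NEFM.

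NEFL, the light chain on which neurofilament assembly depends, is found at chr8:24950955-24956721 (hg38, minus strand), with 4 exons in its canonical GENCODE transcript. Its control samples were at 44.3, 41.3, 43.3 and 40.1 RPKM in replicates 1 to 4, and its SB-treated samples at 26.6, 27.1, 26.6 and 28.1 RPKM. The SB-treated samples were all below the lowest control, with a mean of 27.1 ± 0.680 RPKM against 42.2 ± 1.90 RPKM (SD, n = 4 each). This was a log2 fold change of -0.62 (standard error 0.041). Between 3926 and 7237 reads per sample stood behind these values. A microRNA on the same strand and a long noncoding RNA on the opposite strand overlap NEFL in the annotation, and neither has a row.

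NEFM, the medium chain, whose tail projects from the filament, is a neighbour of NEFL at chr8:24913758-24919098 (plus strand), with 31856 bases between them. Its 4 controls were at 41.2, 36.1, 38.9 and 36.0 RPKM and its SB-treated samples at 18.3, 16.9, 18.1 and 17.7 RPKM. The groups lay far apart, with means of 38.0 ± 2.47 and 17.7 ± 0.645 RPKM (SD, n = 4 each) and a ratio of SB-treated to control of 0.467. At a log2 fold change of -1.06 (standard error 0.050), the gene ranked 27 from the largest fall among the 14526 genes. The rank is on the log2(RPKM + 1) scale, which understates changes of genes at low levels.

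INA encodes alpha-internexin, a filament protein that appears early in developing neurons. Its locus is chr10:103277138-103290346 (plus strand). It went the other way from NEFL and NEFM. The controls were at 6.09, 5.09, 4.96 and 5.01 RPKM and the SB-treated samples at 9.52, 8.76, 9.32 and 8.81 RPKM. The groups did not overlap, although control replicate 1 lay above the other 3 controls. The mean went from 5.29 ± 0.537 to 9.10 ± 0.375 RPKM (SD, n = 4 each), a log2 fold change of 0.69 (standard error 0.059). Without control replicate 1 it was 0.75. NT5C2, a nucleotidase gene, overlaps INA on the opposite strand and also has a row, at 20.6 ± 1.44 RPKM in the controls and 24.2 ± 0.283 RPKM in SB-treated cells (SD, n = 4 each). The kit marks strand, but whether reads were counted by strand is not given in the sources used here, so reads of the overlap cannot be assigned to either gene.

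The make-up of the filament transcripts differed between the groups. The summed level of NEFL, NEFM and INA was 85.6 ± 4.74 RPKM in the controls and 53.9 ± 0.836 RPKM in SB-treated cells (SD, n = 4 each). INA made up between 5.70% and 6.65% of this sum in the controls and between 16.1% and 17.5% in SB-treated cells. NEFM made up between 43.8% and 45.0% in the controls and between 32.0% and 33.7% in SB-treated cells. The share of NEFL overlapped between the groups, at 49.4% ± 0.722 and 50.2% ± 1.37 (SD, n = 4 each). Relative to the RPKM of NEFL, that of NEFM went from 0.900 ± 0.0225 to 0.655 ± 0.0338 and INA from 0.125 ± 0.00944 to 0.336 ± 0.0210 (SD, n = 4 each). Each of these ratios separated the groups without overlap. This is a description only, because the genes were listed with this comparison known. How often ratios of other genes separate the groups was not tested.

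**Figure D1:**
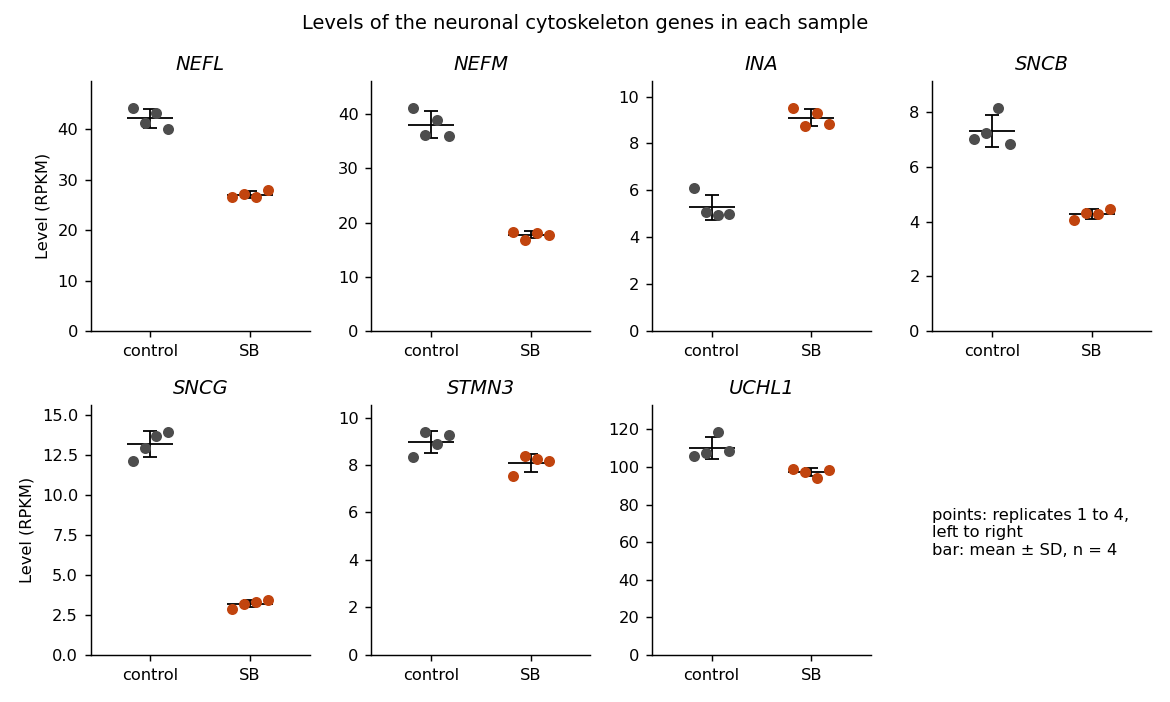
Levels (RPKM, linear axes from 0) of the 7 members with a row, in 4 control (grey) and 4 SB-treated samples (orange), with a bar at the mean and error bars of 1 SD. The orange points lie below the grey points for NEFL, NEFM, SNCB, SNCG and UCHL1 and above them for INA, and the groups overlap for STMN3.

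SNCG encodes gamma-synuclein, which is found in peripheral neurons and also in some tumours. The gene sits at chr10:86958599-86963258 (plus strand). Controls were at 12.1, 12.9, 13.7 and 14.0 RPKM and SB-treated samples at 2.90, 3.17, 3.32 and 3.44 RPKM. The groups lay far apart, with means of 13.2 ± 0.822 and 3.20 ± 0.232 RPKM (SD, n = 4 each) and a ratio of SB-treated to control of 0.243. Its log2 fold change of -1.75 (standard error 0.054) ranked 2 from the largest fall among the 14526 genes. The reads were few in SB-treated cells, between 92 and 132 per sample against 404 to 472 in the controls. On the log2(RPKM + 1) scale the change of a gene at this level is understated, and a pseudocount of 0.1 gave -2.01. MMRN2, an endothelial matrix gene, overlaps SNCG on the opposite strand, at 0.535 ± 0.103 RPKM in the controls and 0.381 ± 0.0640 RPKM in SB-treated cells (SD, n = 4 each).

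SNCB encodes beta-synuclein, a form found mainly in the brain. The gene sits at chr5:176620082-176630556 (minus strand). Controls were at 7.02, 7.23, 8.16 and 6.85 RPKM and SB-treated samples at 4.06, 4.34, 4.27 and 4.48 RPKM. All SB-treated samples were below all controls, with means of 4.28 ± 0.176 and 7.32 ± 0.587 RPKM (SD, n = 4 each), a log2 fold change of -0.65 (standard error 0.052).

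Together SNCB and SNCG went from a summed level of 20.5 ± 1.13 RPKM in the controls to 7.49 ± 0.399 RPKM in SB-treated cells (SD, n = 4 each). SNCG took between 62.6% and 67.1% of this sum in the controls and between 41.7% and 43.7% in SB-treated cells, so SNCG held the larger part in every control and SNCB in every SB-treated sample.

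**Figure D2:**
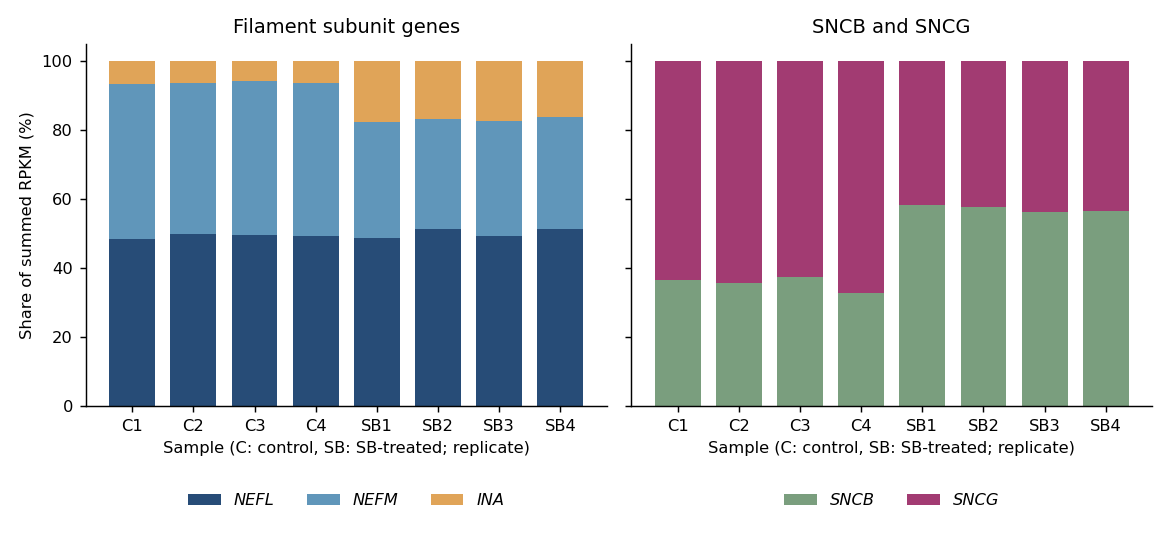
Share (%) of the summed RPKM taken by NEFL, NEFM and INA (left) and by SNCB and SNCG (right) in each of the 4 control (C) and 4 SB-treated (SB) samples. INA takes 16.1% to 17.5% of the filament sum in SB-treated samples against 5.70% to 6.65% in controls, and SNCG takes 41.7% to 43.7% of the sum with SNCB against 62.6% to 67.1%.

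STMN3, a membrane-anchored stathmin of neurons, is found at chr20:63639705-63657682 (minus strand). Controls were at 8.34, 9.41, 8.88 and 9.25 RPKM and SB-treated samples at 7.52, 8.37, 8.24 and 8.16 RPKM. The lowest control, replicate 1, lay within the SB-treated range. At a log2 fold change of -0.14 (standard error 0.046) it was called lower, and this call was lost with library sizes without TMM factors and in 3 of the 8 fits that left out a sample. Without TMM factors the median of all genes moved from 0.0039 to 0.11 on the log2 scale, and STMN3 was at -0.042.

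UCHL1 is found at chr4:41256413-41268455 (plus strand), overlapped on the opposite strand by the noncoding UCHL1-DT, which has no row. It was the most abundant member, above 96.6% of the genes by mean level. Controls were at 106, 107, 119 and 109 RPKM and SB-treated samples at 98.8, 97.1, 94.3 and 98.5 RPKM. The groups did not overlap but lay close together, with means of 110.2 ± 5.85 and 97.2 ± 2.03 RPKM (SD, n = 4 each). At a log2 fold change of -0.18 (standard error 0.043) it was called lower. The value was -0.074 without TMM factors and -0.057 with length and GC terms together with a block for the replicate number, and in neither was the gene called.

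The order of the members by level changed between the groups. In the controls it was UCHL1, NEFL, NEFM, SNCG, STMN3, SNCB and INA, and samples of NEFL and NEFM overlapped while those of the other neighbours did not. In SB-treated cells it was UCHL1, NEFL, NEFM, INA, STMN3, SNCB and SNCG, with no overlap between the samples of neighbours. INA went from rank 7 to rank 4, and SNCG from rank 4 to rank 7. The median gene of the table was at 8.30 RPKM in the controls, a level that UCHL1, NEFL, NEFM, SNCG and STMN3 exceeded and SNCB and INA did not. Among the changes of all genes, the log2 fold change of INA was at percentile 98.5, that of NEFM at 0.186, and that of NEFL at 2.46, while SNCB ranked 291 from the largest fall. STMN3 and UCHL1 lay well inside the distribution, at percentiles 32.6 and 28.1.

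**Figure D3:**
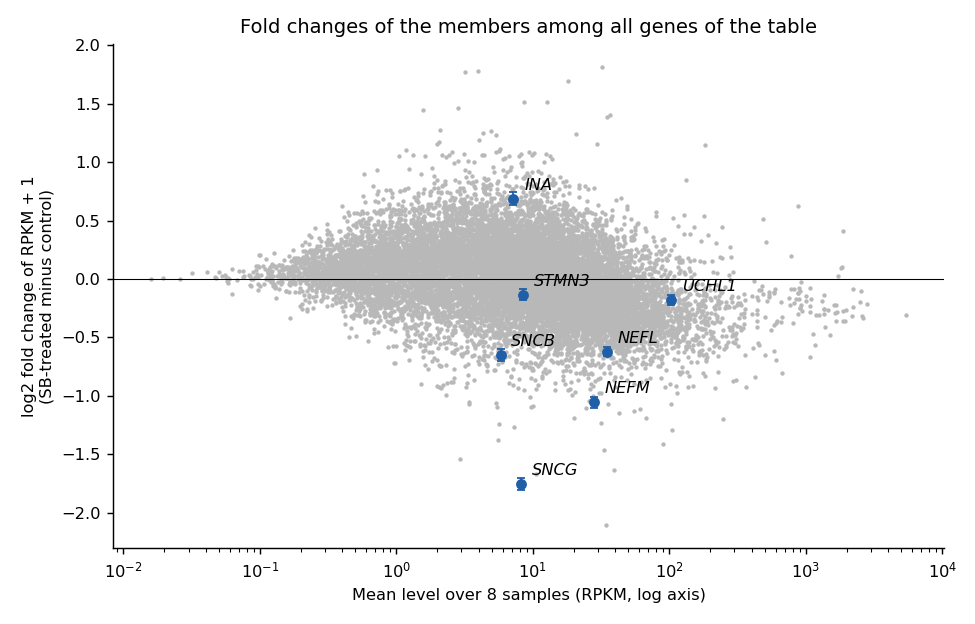
Log2 fold change of RPKM + 1 (SB-treated minus control) against the mean level over the 8 samples (RPKM, log axis) for all 14526 genes in grey and for the 7 members in blue with error bars of 1 standard error. SNCG at -1.75 and NEFM at -1.06 lie at the lower edge of the cloud and INA at 0.69 near the upper edge, while STMN3 and UCHL1 lie within it.

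Membership of the table was itself a threshold. A gene had a row if it was above 1 CPM in at least 2 samples by the authors' filter. The lowest sample of any member was at 2.39 CPM, for SNCG in SB-treated cells, and the member with the next higher minimum was SNCB, at 5.88 CPM. NEFH and STMN2 have no value to set beside these.

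For each member the gene with the most similar profile over the 8 samples was found among 12538 genes with a mean of at least 1 RPKM, by Pearson's r of log2(RPKM + 1). It was SPCS1 for NEFL (r = 0.999), NUFIP1 for NEFM (0.999), ZNF37A for INA (0.999), NAA10 for SNCB (0.998) and YARS for SNCG (0.999). For STMN3 it was SLC2A4 (0.974) and for UCHL1 it was SSU72 (0.984). High values were common: 1594 genes had an r of at least 0.95 with NEFL and 1101 with INA, but 28 with STMN3 and 26 with UCHL1. The points share the division into control and SB-treated libraries, so r is a description. It does not measure the level or the size of a change. YARS went from a mean of 259.7 RPKM in the controls to 178.5 RPKM in SB-treated cells, and SNCG from 13.2 to 3.20 RPKM.

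The gene lists that follow were chosen with earlier results of these data known. Among all genes 33.0% were called higher and 32.6% lower, and nothing is read from the counts of calls in any list beside these shares. The other intermediate filament genes were set beside the neurofilaments. Of 12 listed, 11 have a row, and 6 were higher, 2 were lower and 3 did not pass the test, with a median log2 fold change of 0.24. VIM, the filament of mesenchymal and many cultured cells, rose from 398.9 ± 16.3 to 569 ± 9.66 RPKM (SD, n = 4 each), a log2 fold change of 0.51 (limma adjusted p = 3.67e-06). NES, a filament of neural progenitors, rose from 6.11 ± 0.694 to 7.98 ± 0.0547 RPKM (SD, n = 4 each, limma adjusted p = 0.00107). KRT8, an epithelial keratin, rose with a log2 fold change of 0.37 (limma adjusted p = 3.53e-04), and LMNB2, a nuclear lamin, with 0.24 (limma adjusted p = 9.62e-04), a call lost with length and GC terms. KRT18, another keratin, and LMNB1, another lamin, were named after their values were seen. KRT18 was at -0.065 and did not pass, and LMNB1 was at -0.16 and was called lower. PRPH, the filament of peripheral neurons, was named after its values were seen and was at 1.31 ± 0.0243 and 1.31 ± 0.231 RPKM (SD, n = 4 each).

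The relatives of the synucleins, stathmins and UCHL1 were 7, of which 6 have a row, with 1 higher, 2 lower and 3 that did not pass. The 3 other ubiquitin C-terminal hydrolases moved in both directions. UCHL5, which works at the proteasome, fell from 39.4 ± 6.38 to 22.7 ± 0.882 RPKM (SD, n = 4 each), a log2 fold change of -0.76 (limma adjusted p = 7.28e-05). UCHL3 fell with -0.45 (limma adjusted p = 3.95e-05; -0.19 with length and GC terms), and BAP1, a nuclear tumour suppressor, rose with 0.41 (limma adjusted p = 2.01e-04). STMN1, the stathmin of dividing cells, was at 86.3 ± 4.96 and 84.0 ± 0.921 RPKM (SD, n = 4 each), with STMN3 at 0.104 ± 0.0107 and 0.0962 ± 0.00524 times its level.

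Of 30 genes for the axonal and microtubule-associated cytoskeleton, 29 have a row. Of these 16 were higher, 5 were lower and 8 did not pass, with a median log2 fold change of 0.14. The shares over all genes were 33.0% higher and 32.6% lower. Without control replicate 1 the counts were 17 and 9. DST, a giant linker between filaments and microtubules, rose from 8.33 ± 0.192 to 18.3 ± 0.549 RPKM (SD, n = 4 each), with a log2 fold change of 1.05 (limma adjusted p = 7.61e-08). KIF1A, a motor that carries synaptic vesicle precursors, rose with 1.03 (limma adjusted p = 1.95e-05), and ANK2, an adaptor of the membrane skeleton, with 0.71 (limma adjusted p = 1.18e-06). MAPRE1, which binds growing microtubule ends, fell with -0.11 (limma adjusted p = 0.0117), a call lost without TMM factors (-0.010) and with length and GC terms (-0.020). MAPRE2 and MAPRE3, named after their values were seen and so given without p-values, were at log2 fold changes of -0.49 and 0.29. SPTAN1, a spectrin, was at 44.1 ± 4.24 and 46.5 ± 0.431 RPKM (SD, n = 4 each).

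Of 15 genes for neurofilament kinases and turnover, 13 have a row, with 8 higher, 3 lower and 2 that did not pass. CDK5, a kinase of neurofilament tails, fell from 23.1 ± 2.31 to 14.9 ± 0.726 RPKM (SD, n = 4 each, limma adjusted p = 5.30e-05). Its activator CDK5R1 rose from 4.11 ± 0.260 to 5.79 ± 0.111 RPKM (SD, n = 4 each, limma adjusted p = 2.30e-05). The phosphatase subunit PPP2CA fell with a log2 fold change of -0.37 (limma adjusted p = 2.46e-04), and the casein kinase CSNK1D rose with 0.19 (limma adjusted p = 0.00439).

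Of 22 synaptic and secretory vesicle genes, 15 have a row, with 7 higher, 2 lower and 6 that did not pass. RAB3A, a GTPase of synaptic vesicles, fell from 4.94 ± 0.578 to 1.85 ± 0.188 RPKM (SD, n = 4 each), a log2 fold change of -1.06 (limma adjusted p = 2.53e-06). The pseudocount of 1 understates this fall, since the ratio of SB-treated to control was 0.375. SYT11 rose from 0.684 ± 0.0607 to 1.36 ± 0.0937 RPKM (SD, n = 4 each), with a log2 fold change of 0.49 (limma adjusted p = 8.17e-06) that the pseudocount of 1 lowers at this level, since a pseudocount of 0.1 gave 0.90. VAMP2, a SNARE protein of vesicles, rose with 0.35 (limma adjusted p = 4.09e-05).

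Of 22 neuronal RNA-binding and surface genes, 18 have a row, with 8 higher, 2 lower and 8 that did not pass. L1CAM, an axonal adhesion molecule, rose from 1.29 ± 0.237 to 3.86 ± 0.163 RPKM (SD, n = 4 each), a log2 fold change of 1.09 (limma adjusted p = 1.54e-06). The pseudocount of 1 lowers this value, since the ratio of SB-treated to control was 2.99. ENO2, the neuronal enolase, rose with 0.38 (limma adjusted p = 4.14e-04) and the splicing factor RBFOX2 with 0.16 (limma adjusted p = 0.00366), a call lost with length and GC terms. CNTNAP2, a surface protein of axons, fell with -0.40 (limma adjusted p = 9.31e-05).

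REST is a repressor that keeps many neuronal genes silent outside neurons. It was at 13.5, 12.2, 12.2 and 11.9 RPKM in the controls and at 17.5, 16.4, 16.1 and 16.4 RPKM in SB-treated cells, without overlap. The log2 fold change was 0.39 (limma adjusted p = 5.91e-05). Of REST and its 15 partners, all have a row, with 5 higher, 6 lower and 5 that did not pass. SIN3B rose with 0.42 (limma adjusted p = 2.66e-05) and HDAC1 with 0.15 (limma adjusted p = 0.00181). The demethylase KDM1A fell with -0.32 (limma adjusted p = 2.15e-05) and the corepressor RCOR2 with -0.40 (limma adjusted p = 1.56e-04).

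**Figure D4:**
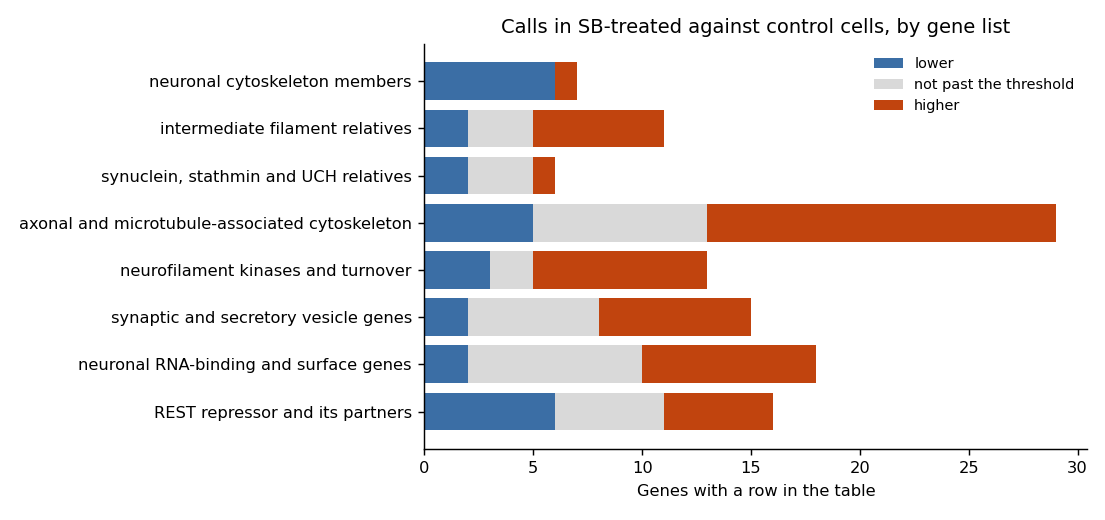
Number of genes with a row (axis from 0) in each gene list that were lower (blue), higher (orange) or not past the limma threshold (grey) in SB-treated against control cells. Among the members 6 of 7 are lower and 1 is higher, and in the axonal and microtubule-associated list 5 of 29 are lower and 16 higher. Over all genes 32.6% were called lower and 33.0% higher.

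The libraries held between 36990091 and 44492817 recovered reads in the controls and between 37161801 and 44878446 in SB-treated cells. Control replicate 1 stood apart from the other controls. A chi-square over genes, per degree of freedom, gave 33.4 to 38.4 for the pairs that hold it and 1.52 to 3.80 for the other pairs of a group, more than counting error alone gives. Without it the log2 fold changes were -0.60 for NEFL, -1.02 for NEFM, 0.75 for INA, -0.67 for SNCB and -1.79 for SNCG. They were -0.17 for STMN3 and -0.20 for UCHL1, and the members' calls stayed at 1 higher and 6 lower.

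**Figure D5:**
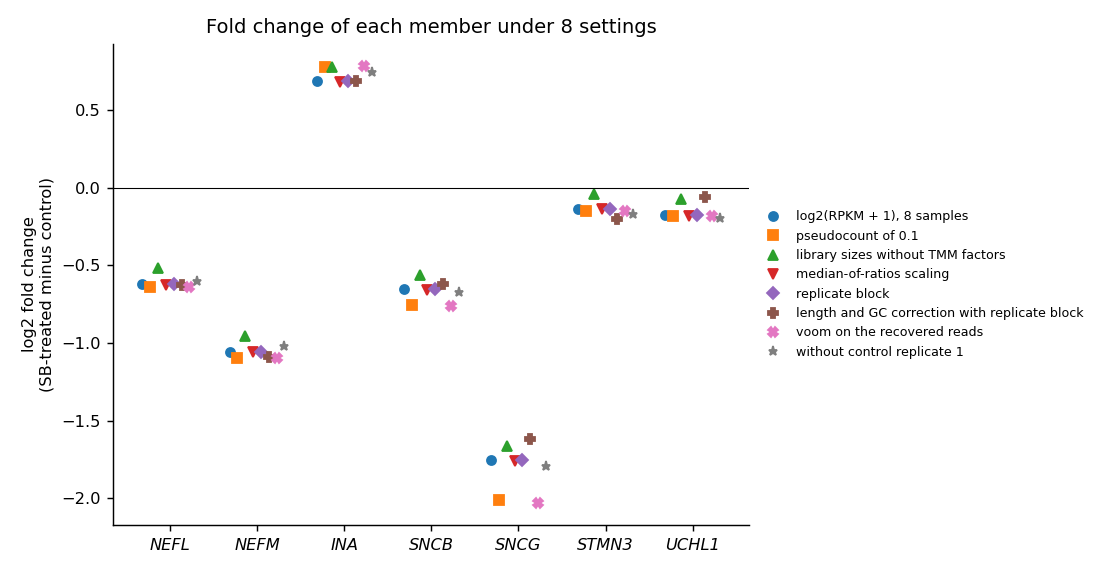
Log2 fold change (SB-treated minus control) of each of the 7 members under 8 settings, each setting with its own symbol. NEFL, NEFM, SNCB and SNCG stay below 0 and INA above 0 in all 8, and STMN3 and UCHL1 come nearest to 0.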

How the data were processed

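Total RNA was sequenced by the authors with a stranded kit in 4 control and 4 SB-treated samples. Mapping to hg38 used TopHat2 2.1.0, and reads per gene came from featureCounts 1.5.0, per the submitters' processing notes. The authors retained genes that exceeded 1 CPM in 2 or more samples and applied TMM scaling in edgeR 3.16.5. The strand setting of the counting is not given in the sources used here. The authors deposited RPKM values per gene and sample. The log2 fold change, mean log2 CPM, p-value and FDR columns beside them were not used, and 0 per-sample columns were left unused.

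The log2 of RPKM plus a pseudocount of 1 was compared between the groups with limma 3.58.1 (R 4.3.3). P-values were adjusted by Benjamini-Hochberg over 14526 genes, with a threshold of 0.05. The RPKM values gave back whole reads, within 0.02 reads, for 100% of genes, where a gene whose reads share a divisor may be at a fraction of its true number. The scale came from 169 genes with equal RefSeq span and counted length. A GC value was found for 97.1% of the genes. The fits and the recovery were tested on simulated data. Other steps used Python 3.11.15. Positions are from GENCODE release 44 on hg38 and promoters from RefSeq GRCh38.p14.

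The members and gene lists were chosen with earlier results of these data known. Named are all members, for each the gene with the highest r, and from each list up to 3 called genes with the largest change at a mean of at least 1 RPKM, up to 2 with the highest mean, and REST, with some genes counted in their lists but not reported here. The study's methods call the samples of a group biological replicates, but the labels do not say whether they were separate cultures. The p-values weigh each difference against the spread between these samples. Alternatives were another pseudocount, other scalings, a read minimum, a replicate block, a length and GC correction, voom, and leaving out each sample. ChIP-seq data were not analysed here.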

Additional observations from a re-analysis of the deposited data

Results flagged for a closer look

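Control replicate 1 lay far from the other 3 controls for 10 named genes, of which INA is a member of the list. For INA control replicate 1 was the highest, and its distance to the next control came to 0.882 of the range of log2(RPKM + 1). The same measure was 0.880 for UCHL3, 0.832 for PPP2CA, 0.888 for CNTNAP2 and 0.845 for REST, where this replicate was also the highest. It was 0.921 for BAP1, 0.847 for SPTAN1, 0.902 for KIF1A, 0.848 for CDK5 and 0.890 for CSNK1D, where it was the lowest. These ratios exceed what Dixon's test allows at the 95% level in a group of 4. The test was run on 72 groups, of which 14 were of members, and all 10 that exceeded it did so by control replicate 1. Chance gives about 1 in 20 groups. No group of SB-treated samples exceeded it.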

How the results depend on the processing

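Voom was chosen after the data were seen. The edgeR test was not run, and voom was used on the recovered reads in its place. NEFL, NEFM, INA, SNCB and SNCG kept direction and call under the alternatives run. Apart from fits that left out a sample, their log2 fold changes ranged from -0.64 to -0.52, -1.10 to -0.96, 0.68 to 0.79, -0.77 to -0.56 and -2.04 to -1.62. Library sizes without TMM factors gave -0.042 for STMN3 and -0.074 for UCHL1, both no longer called, with all genes shifted upwards and 65.1% of calls higher against 50.2%. Length and GC terms plus the replicate block gave -0.057 for UCHL1, not called. Leaving out a sample gave -0.17 to -0.11 for STMN3, where the call was lost without control replicate 2, control replicate 4 or SB-treated replicate 1, and -0.20 to -0.14 for UCHL1. The cause was not tested.

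The replicate block alone gave 4885 genes higher and 4894 lower against 4787 and 4740, and changed no member's call. Deviations of same-numbered replicates correlated at 0.38, 0.327, 0.173 and -0.16, with a mean of 0.18 against -0.0541 for other pairs, and 4 of 8 samples correlated best with their own number. The labels name nothing shared by a number and 1 pair was below 0, so the numbers were not treated as pairs. Called counts moved in small lists. Without TMM factors 1 intermediate filament gene (in place of 2) and 1 synaptic gene (in place of 2) were lower, and 2 relatives of the synucleins, stathmins and UCHL1 (in place of 1) were higher. With length and GC terms and the block, 2 such relatives were higher, and 9 axonal (in place of 5), 4 synaptic and 7 RNA-binding and surface genes (in place of 2) were lower. Voom gave 2 such relatives higher. Leaving out a sample gave 1 to 2 relatives higher (2 without control replicate 1), and 5 to 9 axonal (9 without control replicate 1), 1 to 2 synaptic (1 without control replicate 2 or 4 or SB-treated replicate 1 or 4) and 2 to 4 RNA-binding and surface genes lower (4 without control replicate 4). STMN1 turned to 0.066 without TMM factors, 0.021 with length and GC terms and 2.6e-04 without control replicate 1 (-0.060 to 2.6e-04 over the fits that left out a sample). With length and GC terms and the block SPTAN1 turned to -0.095, and without TMM factors it was called higher at 0.18. Length and GC terms moved NES to 0.18, SIN3B to 0.25, HDAC1 to 0.25, CSNK1D to 0.12 and UCHL3 to -0.19, all still called, and LMNB2 to 0.091, MAPRE1 to -0.020 and RBFOX2 to 9.5e-05, no longer called. Without TMM factors CSNK1D was at 0.30, HDAC1 at 0.25, RBFOX2 at 0.26 and MAPRE1 at -0.010, the last no longer called. SYT11 was at 0.90 with a pseudocount of 0.1 and 0.99 with voom. Among the members SNCG had the fewest reads, 92 in its lowest sample.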
